A study of Homo sapiens with 4 samples.

Results

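Binding of ELF5 at its own gene and at the neighbouring gene EHF was described from a list of ELF5 ChIP-seq peaks in T47D, a human breast epithelial line of the luminal A type. A peak was included if its summit, the base of highest signal, lay on chromosome 11 between 34400 and 34900 kb of the build hg19. This window of 500 kb held 30 of the 115384 peaks in the list. ELF5 was taken to span 34500.3 to 34535.3 kb on the minus strand and EHF 34642.6 to 34684.8 kb on the plus strand, so the gene starts face each other across 107.3 kb and the genes are transcribed away from each other. A peak was called a promoter peak if its summit lay within 2 kb of a gene start. These spans are given to 0.1 kb and mark the outermost start of each gene. Starts of other transcripts inside the genes were not placed, because no hg19 annotation was used here.

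ELF5 and EHF are ETS factors of the epithelium-specific subfamily, and ETS factors bind DNA at a GGAA core that their ETS domain reads. In the mammary gland ELF5 is known for driving alveolar differentiation of luminal progenitors, and EHF is known for maintaining epithelial identity in several organs. Transcription factors are often bound at their own genes and at those of relatives with which they share target sequences. The series is titled for the role of ELF5, apart from EHF, in keeping epithelia intact, and the question taken up here is where ELF5 lay at these 2 genes.

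The series has 3 ELF5 ChIP replicates and 1 input sample. All 4 samples are of T47D cells grown in RPMI with serum and insulin and given no treatment, per the labels. T47D is a single tumour-derived line, and the labels name no other genotype, ELF5 transgene or ELF5 knockdown. Whether the replicates were separate cultures is not stated in the labels. The peak list holds 1 value per peak and none per replicate. Each error below is therefore an exact Poisson 95% interval of the fragment pileup with the background fixed. It covers counting error of the pileup alone and not that of the background. No spread between replicates and no test could be given. PCR duplicates are not independent molecules, and how deeply each sample was sequenced is unknown here. Fold, p and q are values the authors gave for each peak. The fold was read as the ratio of ChIP signal to local background, and the pileup and the background behind it were recovered from fold and p. Pileups are given unscaled. The fold is 0.910 times the pileup, plus 1, over the background plus 1, so a pileup and its background are not on quite the same scale.

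Promoter DNA of both genes is shown first because ELF5 peaks lay near the outermost ELF5 start and inside EHF. RefSeq gives 1 promoter window for ELF5 and 2 for EHF in the build GRCh38.p14, and the 250 bases before each start are printed 5′ to 3′ along the gene's strand. Capitals mark GGAA or its reverse complement TTCC.
ELF5, chr11:34511725-34511974, minus strand: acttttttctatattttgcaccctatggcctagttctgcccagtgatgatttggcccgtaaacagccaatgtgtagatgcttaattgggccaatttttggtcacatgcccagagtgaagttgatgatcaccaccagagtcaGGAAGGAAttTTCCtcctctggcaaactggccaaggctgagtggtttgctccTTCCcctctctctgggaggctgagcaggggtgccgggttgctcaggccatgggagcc
EHF window 1, chr11:34624007-34624256, plus strand: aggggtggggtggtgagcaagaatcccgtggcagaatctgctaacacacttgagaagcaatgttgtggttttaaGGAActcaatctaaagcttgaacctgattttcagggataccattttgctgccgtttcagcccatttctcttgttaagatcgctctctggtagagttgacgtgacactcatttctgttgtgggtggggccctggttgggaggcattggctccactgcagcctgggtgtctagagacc
EHF window 2, chr11:34632316-34632565, plus strand: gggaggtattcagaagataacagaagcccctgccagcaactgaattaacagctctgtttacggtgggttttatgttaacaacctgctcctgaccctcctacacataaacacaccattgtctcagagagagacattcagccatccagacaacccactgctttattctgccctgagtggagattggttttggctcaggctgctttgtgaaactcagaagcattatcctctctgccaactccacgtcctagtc

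The ELF5 window held 4 matches to GGAA on either strand, of which 3 lay close together 109, 105 and 99 bases before the start and the other 57 bases before it. EHF window 1 held 1 match, 176 bases before its start, and EHF window 2 held none. Over the 35116 RefSeq promoter windows of this length, 92.7% held GGAA on at least 1 strand, with a median of 3 matches, and 34.3% held 4 or more. The longer motif AGGAAG, searched on both strands and overlapping GGAA, was present once in the ELF5 window, in neither EHF window, and in 28.7% of all windows. CCGGAA and GGAAGT, which also contain GGAA, were in none of these 3 windows and in 14.5% and 19.5% of all windows. These are matches of letters, not binding sites. The peaks are on hg19, so they were not laid over these sequences. The 2 EHF windows lie 8309 bases apart, and the starts of the ELF5 window and EHF window 1 lie 112.5 kb apart in GRCh38, against 107.3 kb between the outermost starts used here on hg19. The printed windows therefore do not all belong to the starts by which the peaks were placed.

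Peaks were denser within the 2 genes than around them, and of the 3 strongest 1 lay inside EHF, 1 between the genes and 1 in the flank beyond ELF5. The gene spans hold 15.4% of the window (77.2 kb) and held 14 of the 30 peaks. The EHF body, the gene beyond the 2 kb after its start, held 8 peaks, the ELF5 promoter 3, the ELF5 body 3 and the intergenic stretch 5. The flank beyond the 3′ end of ELF5 held 4 peaks and the flank beyond the 3′ end of EHF held 7. No summit lay within 2 kb of the outermost EHF start, and the starts of the RefSeq windows were not placed on hg19. This does not show that EHF promoters were free of peaks. A start inside the gene may lie at a peak counted here as EHF body. Counted over whole gene spans, ELF5 carried 17.1 peaks per 100 kb and EHF 19.0, against 4.66 between the gene starts. With summits within 1 kb joined, the EHF body held 5 peaks and the ELF5 promoter 2. The share of all listed peaks that lie in genes was not computed, and other genes in the flanks were not counted. The higher density was therefore not shown to be particular to ELF5 and EHF.

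**Figure D1:**
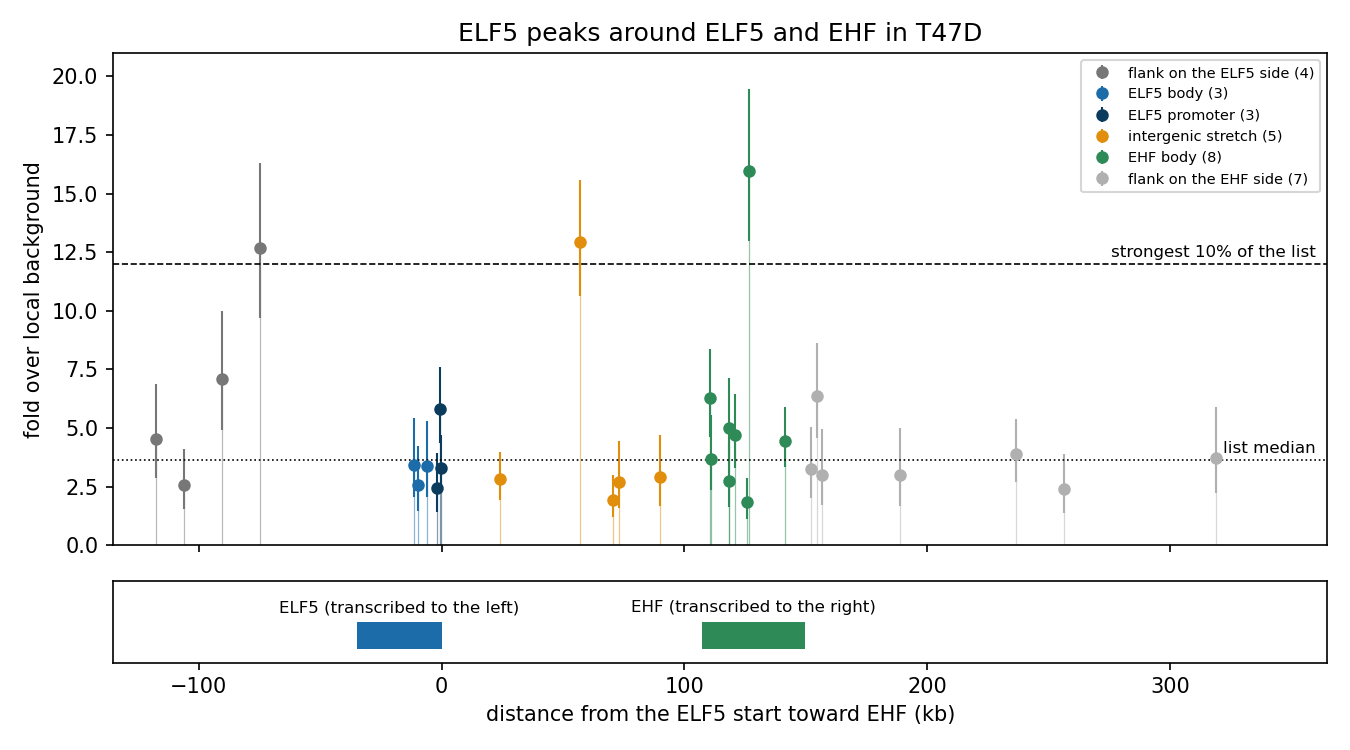
Fold over local background (vertical axis) of the 30 ELF5 peaks against distance from the ELF5 start in kb, positive toward EHF; points are summits coloured by region, vertical bars are 95% counting intervals, and the lower strip shows both genes. Only 3 peaks lie above the dashed line at a fold of 11.99, where the strongest 10% of the list begin, and none of these is in ELF5.

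Of the 30 peaks, 3 belonged to the strongest 10% of the list by fold, which begin at 11.99 and are called strong here. By construction 10.0% of all peaks are strong, so the window's share of 10.0% (exact Clopper-Pearson 95% interval 2.11% to 26.5%) was that of the list. Among peaks with q under 0.05 the strongest 10% begin at 13.2, and with summits within 1 kb joined at 14.3. Under either the intergenic and flank peaks were no longer strong, which left the EHF peak alone and shares of 4% and 3.85%. The median fold in the window was 3.41, from 1.83 to 16.0, against 3.66 over the list. The authors' q was under 0.05 for 25 of the 30 peaks, 83.3%, against 87.5% of all peaks. The 5 peaks with a larger q had folds from 1.83 to 2.57 and pileups of 13 to 18 fragments.

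At ELF5 itself, peaks were moderate or weak and lay at the 5′ end of the gene. All 6 peaks of the gene had their summits within 11.5 kb of the start, which is the first 32.8% of the gene, and the remaining 23.5 kb up to its 3′ end held none. The summits of the 3 promoter peaks followed each other within the 2 kb inside the outermost start, and no summit lay in the 2 kb before it. Whether these 3 peaks lie before or after the RefSeq start of the printed ELF5 window was not determined. The strongest covered 34534442 to 34534672, with its summit 0.7 kb inside the gene. Its fold was 5.81 (95% counting interval 4.35 to 7.62) from a pileup of 50 fragments over a background of 7, and the authors' q was 9.05e-20. It was the seventh strongest of the window by fold, and 76.5% of all peaks in the list had a lower fold.

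The peak nearest the ELF5 start covered 34534960 to 34535671 and so included the start. It was 712 bp wide, the third widest of the window, but had a fold of 3.30 (2.24 to 4.72) from 28 fragments over a background of 7.02. Its summit lay 0.3 kb inside the gene and 458 bases from that of the strongest promoter peak, with 287 bases between the peaks. The intervals of their folds overlap. The third promoter peak, at 34533247 to 34533381, had the smallest width in the list, 135 bp, a fold of 2.44 (1.44 to 3.92) and a q of 0.0746.

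Backgrounds at the ELF5 start were high for this list. A background of 7 is above that of 95.5% of all peaks, and one of 7.02 above that of 97.5%. By pileup, which takes no background into account, the strongest promoter peak was above 87.6% of the list and the peak over the start above 76.3%. Over the lowest background of the list, 1.81 fragments, the same 50 fragments would make a fold of 16.5, and the 28 fragments a fold of 9.41. The place of the ELF5 promoter peaks among all peaks therefore depends on the background used. What raises the background there was not tested.

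The 3 peaks of the ELF5 body were weak. The strongest of them, at 34523795 to 34523937, lay 11.5 kb from the start and had a fold of 3.43 (2.05 to 5.43) from 16 fragments. The next, 6.2 kb from the start, had a fold of 3.39 (2.06 to 5.30), and the last, 9.7 kb from it, a fold of 2.57 (1.46 to 4.25) with a q of 0.0951. Their intervals overlap, so their order was not resolved.

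EHF carried the peak with the highest fold of the window, deep in the gene. It covered 34661619 to 34662205, 587 bp, with its summit 19.2 kb from the EHF start. The fold was 16.0 (12.96 to 19.4), the pileup 96 fragments (77.8 to 117) over a background of 4.54, and the q 1.22e-75. Only 7572 peaks of the list had a higher fold. The strongest peak in ELF5, at a fold of 5.81 (4.35 to 7.62) and a pileup of 50 (37.1 to 65.9), was below it on both measures beyond counting error of the pileup. Counting error of the background was not included.

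Next to this peak, 0.651 kb toward the EHF start, stood the weakest peak of the window. It had a fold of 1.83 (1.11 to 2.86) and a q of 0.509, from 17 fragments over a background of 8. Of all peaks in the list, 0.0641% had a lower fold. The summit of this weak peak lay 11 bases from its edge.

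The EHF peak nearest the outermost start covered 34645699 to 34645933, 3.2 kb inside the gene. Its fold was 6.28 (4.60 to 8.38) from 44 fragments over 5.53, with a q of 2.42e-19. This was close to the fold of the strongest ELF5 promoter peak, 5.81 (4.35 to 7.62), and the intervals overlap. A second peak followed 0.563 kb further in, at 34646334 to 34646539, with a fold of 3.69 (2.35 to 5.54). Both count as EHF body with a promoter of 2 kb and as EHF promoter with a promoter of 5 kb on each side.

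The other 4 EHF peaks were moderate or weak. The peak at 34653122 to 34653641, 10.9 kb into the gene, had a fold of 5.02 (3.42 to 7.13), and its neighbour 0.286 kb away, the closest pair of the window, a fold of 2.75 (1.62 to 4.42). The peak at 34655751 to 34656190, 13.4 kb into the gene, had a fold of 4.69 (3.31 to 6.47). The deepest EHF peak, 34.0 kb into the gene, had a fold of 4.47 (3.32 to 5.89), and its 48 fragments stood over a background of 9, the highest in the window and shared with an intergenic peak. In EHF the summits thus ran over the first 80.6% of the gene, against 32.8% in ELF5. By pileup, the 8 EHF peaks had a median of 32 fragments and the 6 ELF5 peaks of 16.5, with ranges of 15 to 96 and 13 to 50 that overlap.

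**Figure D2:**
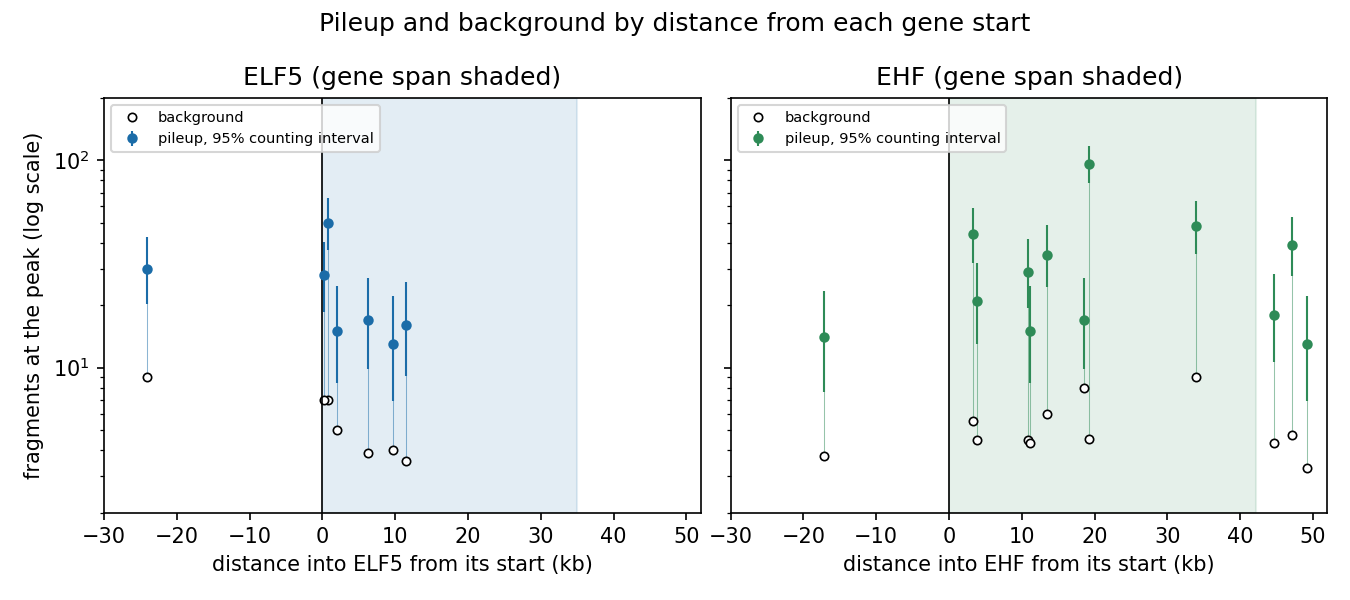
Recovered pileup (filled points, with 95% counting intervals) and background (open points) in fragments, on a log axis, against distance into ELF5 (left) and into EHF (right) from each gene's start in kb, with the gene spans shaded. ELF5 peaks stop 11.5 kb into the gene, while EHF peaks begin 3.2 kb in and include the peak of 96 fragments at 19.2 kb. Pileups are drawn before the factor of 0.910 that sets them on the scale of the background.

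Between the genes, a single strong peak lay near the middle of the stretch. It covered 34592088 to 34592398, with its summit 56.9 kb from the ELF5 start and 50.4 kb from the EHF start. The fold was 12.9 (10.6 to 15.6), the pileup 109 fragments (89.5 to 131), the highest of the window, and the background 6.75. Its interval overlaps that of the strongest EHF peak, so the 2 were not ranked by fold, and by pileup their intervals overlap as well.

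The intergenic peak was narrow for its strength. It was 311 bp wide, whereas strong peaks of the list had a median width of 818 bp, and 4.84% of them were narrower. The strongest EHF peak, of 587 bp, was wider than 28.1% of strong peaks. By the authors' p, 6288 peaks of the list were above the intergenic peak and 6227 above the strongest EHF peak, while by fold 10448 and 7572 were.

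The other 4 intergenic peaks had folds from 1.93 to 2.90 and pileups of 14 to 30 fragments. The peak nearest the ELF5 start on this side lay 24.1 kb from it, at 34559282 to 34559464, with a fold of 2.83 (1.94 to 3.996) over a background of 9. The peak nearest the EHF start on this side lay 17.2 kb from it, at 34625290 to 34625446, with a fold of 2.90 (1.68 to 4.72). Neither outermost start thus had a summit in the 17 kb before it, and starts further inside the genes were not placed.

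In the flanks, the third strong peak lay beyond the 3′ end of ELF5. It covered 34460118 to 34461031, 39.8 kb from that end, and was the widest of the window at 914 bp. The fold was 12.7 (9.69 to 16.3) from 58 fragments over 3.24. In the RefSeq gene order of GRCh38, CAT, which encodes catalase, is the protein-coding gene on this side of ELF5, and APIP is the next beyond EHF. Which gene holds the flank peaks on hg19 was not analysed here. A peak 55.2 kb beyond ELF5, at 34444876 to 34445242, was the fourth strongest of the window with a fold of 7.11 (4.91 to 10.00), and the remaining 2 on this side had folds of 4.53 and 2.59.

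Beyond the 3′ end of EHF, 3 peaks stood within 6.9 kb of the gene and the other 4 were spread over the rest of the flank. The strongest covered 34689324 to 34690130, 5.0 kb beyond EHF, with a width of 807 bp and a fold of 6.37 (4.58 to 8.65). Its neighbours at 2.5 and 6.9 kb had folds of 3.27 and 3.01. The 4 further peaks, from 39.3 to 169 kb beyond the gene, had folds from 2.40 to 3.88. The outermost peaks inside the window had folds of 4.53 on the ELF5 side and 3.72 on the EHF side, and the nearest outside had folds of 3.91 and 16.0, the latter 38.0 kb past the edge at 34937285 to 34938589.

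With the backgrounds held fixed, the depth resolved the order of the peaks only in part. The 3 strong peaks had intervals that overlap each other. The lower bounds of the EHF and intergenic peaks, 12.96 and 10.6, were above the upper bounds of all 27 other peaks. That of the strong flank peak, 9.69, was above those of 26, the exception being the fourth peak with an upper bound of 10.00. The fourth peak, at 7.11, cleared 11 of the peaks below it, the fifth and the sixth 9 each, the seventh (the strongest ELF5 promoter peak) 7, and the eighth and the ninth 2 each. From the tenth peak by fold (4.53) down, the only peak whose interval cleared a lower one was that at 4.47, and it cleared 2. The lower bound of the fold was above the list's median of 3.66 at 7 of the 30 peaks, 23.3%, against 24.7% of all peaks. These were the 3 strong peaks, the flank peaks at 7.11 and 6.37, the first EHF peak and the strongest ELF5 promoter peak. The upper bound was below that median at 2 of the 30 peaks, those at 1.83 and 1.93, against 2.52% of all peaks.

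Backgrounds were above the list's median of 3.10 fragments at 28 of the 30 peaks. Their median was 4.50, from 3 to 9, against 3.74 and 4.09 in the next windows of 500 kb on the ELF5 and EHF sides and 4 over all peaks of chromosome 11. Among 2747 windows of this length with at least 10 peaks, 94.6% had a lower median background. By pileup, 19 of the 30 peaks were above the list's median of 16, while by fold 14 were above the median. The strongest 10% of the list by pileup, which are 10.2% with ties, took in the strongest EHF peak and the intergenic peak but not the flank peak of 58 fragments. When every peak of the list was set over the lowest background, 7 of the 30 passed 11.99, against 17.9% of all peaks. These were the 3 strong peaks, the strongest ELF5 promoter peak, the first and the deepest EHF peaks, and the peak 5.0 kb beyond EHF, with the other ELF5 peaks below it.

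**Figure D3:**
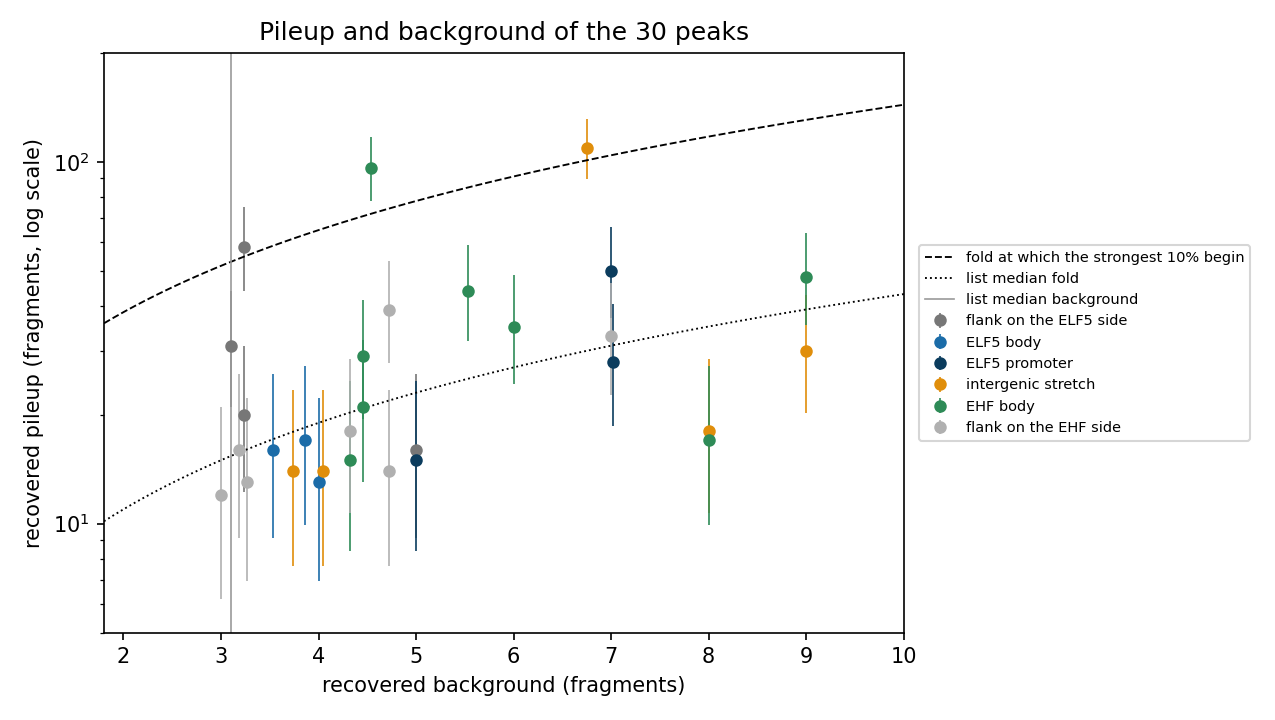
Recovered pileup (log axis, with 95% counting intervals) against recovered background, both in fragments, for the 30 peaks coloured by region; the curves mark the pileup needed for a fold of 11.99 (dashed) and for the list's median of 3.66 (dotted). The strongest ELF5 promoter peak, at 50 fragments over 7, and the deepest EHF peak, at 48 over 9, lie right of most peaks, and 28 of the 30 lie right of the list's median background of 3.10.

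Compared with the genome in windows of 500 kb, this locus had many peaks with a low median fold. Its 30 peaks were more than in 80.3% of 5909 windows, whose median was 8 peaks (interquartile range 3 to 23), and its 3 strong peaks were more than in 73.2%. Its strongest peak, at a fold of 16.0, was above the strongest of 51.2% of windows. Its median fold, 3.41, was above that of 23.6% of the 2747 windows with at least 10 peaks, whose median was 3.79. Against the 264 windows with 27 to 33 peaks, itself included, the median number of strong peaks was also 3, with fewer in 116 and more in 107, and 214 had a stronger highest peak. The next window on the ELF5 side held 36 peaks, of which 4 were strong, and the next on the EHF side 12, of which 1 was strong. Their median folds were 3.27 and 3.43, and that over all peaks of chromosome 11 was 3.39. The low median fold was thus not particular to this locus. These windows were not matched for genes or sequence, so the ranks only describe the list.

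**Figure D4:**
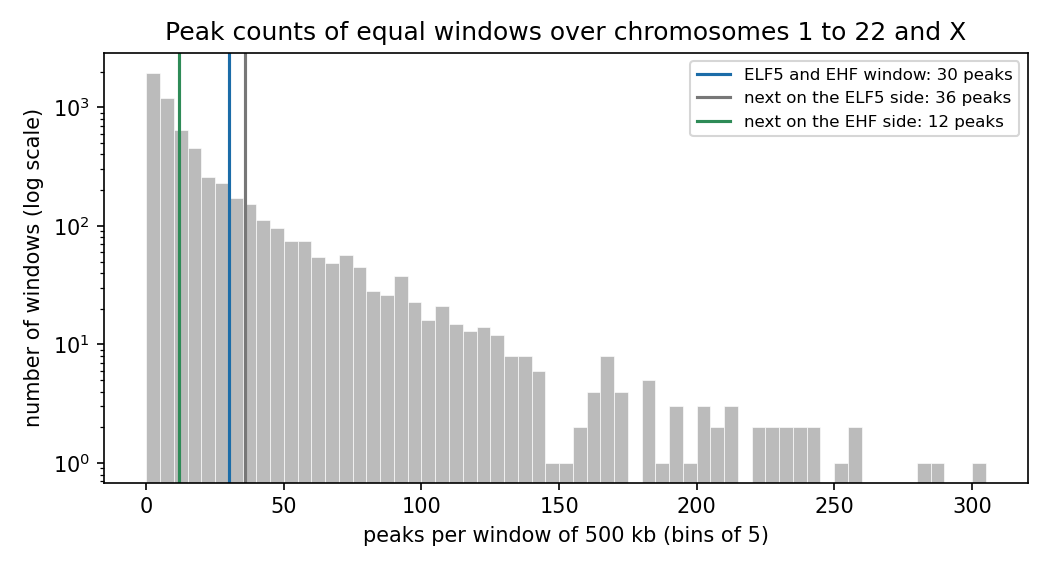
Number of windows of 500 kb (log axis) by the number of peaks they hold, over chromosomes 1 to 22 and X, with vertical lines at the ELF5 and EHF window and its neighbours. The window lies at 30 peaks, between its neighbours at 12 and 36 and above the median of 8.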

How the data were processed

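ELF5 ChIP-seq peaks of T47D were taken from the authors' deposited list on hg19, whose track name, per the file headers, refers to IDR and to 1-3. For the aligner, peak caller, threshold, use of the input and pooling, nothing is given in the sources used here. Each peak has the authors' deposited score, signal (read as a fold, a ratio to background), −log10 p, −log10 q and summit. Positions were written counted from 1. Pileup and background were recovered from fold and p by a Poisson model (whole pileups times 0.910, pseudocount 1), and all 115384 values of −log10 p were matched to within 0.001. They are inferred, and which library the background comes from is not stated. On 20000 peaks simulated from the same model 100% of pileups were recovered, which checks the code but not whether the model holds for this list.

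The named peaks were all promoter peaks, the strongest of each region, the 5 strongest of the window and the nearest to each start; others named were chosen after their values were seen. The locus, regions and rules were chosen with earlier results of these data known. Equal windows were tiled from the locus outward, chromosome Y left out. The tools were pandas 2.3.3, scipy 1.17.1, numpy 2.4.6 and matplotlib 3.10.9, run in Python 3.11.15.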

Additional observations from a re-analysis of the deposited data

How the results depend on the processing

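Of 73 alternative values, 62 stayed within 1.5 times the count or within the 95% interval of the share, median or rank, and 11 did not. Placing peaks by midpoint or by any overlap gave the same counts again, so these settings tested little. The interval of the share, 2.11% to 26.5%, holds every share of strong peaks below except 0%, so those count as unchanged. The interval of the rank treats windows as draws and does not measure an error of this window. In the 57924 peaks with the highest folds, the window held 14 peaks with a median fold of 5.42, more than in 76.7% of equal windows. There the ELF5 body held 0, the ELF5 promoter 1, the intergenic stretch 1 and the flank on the EHF side 3, and the share of strong peaks was 0%, because the strongest 10% of that shorter list begin at a fold of 18.8. With q under 0.05 alone, the rank was 78.8% of windows and the share of strong peaks 4%, and with summits within 1 kb joined the share was 3.85%. That joining left 5 peaks in the EHF body, and a promoter of 5 kb gave EHF 2 promoter peaks. Ranking by pileup made 2 of the 30 peaks strong, 6.67%, against 10.2% of the list, and setting every peak over the lowest background made 23.3%; both were chosen after seeing the data. No paired analysis was possible because every peak has 1 value for all replicates, and leaving out replicates was not run. Pileups of 12 to 35 fragments at most peaks limit their ranking.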
